A study of Mus musculus with 3 samples.

Results

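Fc receptors bind the constant part of antibodies, and 8 genes of this system were followed through MYCN-driven mouse neuroblastoma: the activating Fcγ receptors Fcgr1, Fcgr3 and Fcgr4, the inhibitory receptor Fcgr2b, the signaling chains Fcer1g and Tyrobp, the kinase Syk and the neonatal receptor Fcgrt. They were taken by name as a list relevant to antibody therapy, with earlier results of these data known, so the choice was not blind to the data. All 8 were among the 31053 genes of the raw count tables. The 3 primary tumors of TH-MYCN mice, in which a tyrosine hydroxylase promoter drives human MYCN in neural crest-derived cells, were dissociated whole and profiled by droplet single-cell RNA-seq. Every mouse was heterozygous for the transgene, and the mice were 62, 79 and 63 days old for tumors 1, 2 and 3. The tumors formed a single group with no untreated or control arm, so the comparisons run between cell classes within the tumors, with the tumor as the replicate (n = 3) and not the cell. Where a class of a tumor had fewer than 10 cells it was left out of levels and tests, and the n of that class is smaller, while shares of UMIs over whole tumors count every kept cell.

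Fcγ receptors link antibody-coated cells to phagocytes and natural killer cells. The mouse activating receptors FcγRI, FcγRIII and FcγRIV, encoded by Fcgr1, Fcgr3 and Fcgr4, signal through the common γ chain encoded by Fcer1g, whose phosphorylated activation motif recruits the kinase Syk, while FcγRIIb, encoded by Fcgr2b, carries an inhibitory motif and dampens that signal. Tyrobp encodes DAP12, a related chain used by receptors such as Trem2. Fcgrt encodes the heavy chain of FcRn, which rescues IgG from lysosomal breakdown, and therapeutic antibodies against neuroblastoma depend on such receptors on the host's cells.

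By the GENCODE M21 annotation of GRCm38, Fcgr2b (chr1:170958617-170976547, minus strand), Fcgr4 (chr1:171018920-171029761, plus strand), Fcgr3 (chr1:171051174-171064935, minus strand) and Fcer1g (chr1:171229572-171234365, minus strand) lie near each other on chromosome 1. Fcgr1 lies at chr3:96282909-96293969 (minus strand), Tyrobp at chr7:30413760-30417585 (plus strand), Fcgrt at chr7:45092990-45103851 (minus strand) and Syk at chr13:52583173-52648792 (plus strand). Overlapping antisense genes were listed for Fcgr2b (Gm38204) and Fcgrt (Gm45669), and these held 0 and at most 6 UMIs in the kept cells of a tumor. RefSeq promoters (GRCm38.p6, 250 bases before to 50 after the start) matched 7 of the 8 genes, with 9 entries, and none was matched for Tyrobp. The promoters of the 3 activating receptors are shown because all 3 genes were higher in macrophage-like cells but had different orders among the macrophage subsets, and that of Fcgr2b because its product opposes theirs. Capitals mark GAGGAA read on either strand (TTCCTC on the strand shown), a core recognized by the myeloid factor PU.1. The windows are chr3:96293920-96294219 (Fcgr1, minus strand), chr1:171059354-171059653 (Fcgr3, minus strand), chr1:171018676-171018975 (Fcgr4, plus strand) and chr1:170976022-170976321 (Fcgr2b, minus strand), each printed 5′ to 3′ on the strand of its gene, and the RefSeq starts of Fcgr2b and Fcgr3 lie inside their GENCODE spans.
Fcgr1: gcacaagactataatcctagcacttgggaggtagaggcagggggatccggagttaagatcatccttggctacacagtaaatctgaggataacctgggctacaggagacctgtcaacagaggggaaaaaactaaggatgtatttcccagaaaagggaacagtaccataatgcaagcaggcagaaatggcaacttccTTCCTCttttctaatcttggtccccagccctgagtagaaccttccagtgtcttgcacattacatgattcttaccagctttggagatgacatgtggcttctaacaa
Fcgr3: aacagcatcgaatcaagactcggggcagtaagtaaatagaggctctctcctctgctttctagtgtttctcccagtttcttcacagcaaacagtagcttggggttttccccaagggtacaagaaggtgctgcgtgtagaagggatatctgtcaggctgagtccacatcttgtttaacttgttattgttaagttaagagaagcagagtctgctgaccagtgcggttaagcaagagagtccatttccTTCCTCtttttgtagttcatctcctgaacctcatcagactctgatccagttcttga
Fcgr4: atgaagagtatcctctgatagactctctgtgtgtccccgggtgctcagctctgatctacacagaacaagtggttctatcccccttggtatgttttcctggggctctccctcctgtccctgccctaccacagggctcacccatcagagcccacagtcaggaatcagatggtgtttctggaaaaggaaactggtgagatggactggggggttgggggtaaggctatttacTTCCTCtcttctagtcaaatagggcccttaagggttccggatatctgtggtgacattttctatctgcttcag
Fcgr2b: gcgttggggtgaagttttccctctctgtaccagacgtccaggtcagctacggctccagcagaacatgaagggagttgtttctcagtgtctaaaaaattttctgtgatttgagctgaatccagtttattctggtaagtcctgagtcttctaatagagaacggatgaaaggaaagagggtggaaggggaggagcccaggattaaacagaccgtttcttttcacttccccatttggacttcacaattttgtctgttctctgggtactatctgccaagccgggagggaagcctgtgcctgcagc
The letters GAGGAA stood in the windows of Fcgr1, Fcgr3 and Fcgr4, beginning 55, 6 and 22 bases before the start, and not in that of Fcgr2b. They were found in 5 of the 9 entries of the 8 genes and in 28.3% of all 32851 RefSeq promoters of the same length. The Fcgr3 entries overlap and share the same match, so it was counted more than once, and Syk had it in the entry starting at chr13:52596632 only. TTCNNNGAA, the letters of a STAT-bound gamma-activated site, was searched likewise on both strands and was found in the Fcgr1 window among the 9 entries, 109 bases before the start (not capitalized), and in 8.30% of all promoters, and it did not overlap GAGGAA. Such matches describe letters and not binding.

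After the authors' filters 5650 cells were kept (1914 of 3257 barcodes in tumor 1, 1221 of 4327 in tumor 2 and 2515 of 6038 in tumor 3), with 12628163, 2740537 and 5215401 UMIs and a median of 4283, 1594 and 1816 UMIs per cell. Between pairs of tumors 0 to 3 kept barcodes were shared. Clusters formed without the 8 genes were named from marker lists, and 897 macrophage-like cells (608, 102 and 187) and 312 neutrophil-like cells (236, 54 and 22) were found. A cluster of 122 cells that met 10 of 15 macrophage markers stayed unnamed. All 15 macrophage markers had UMIs in the macrophage-like cells of every tumor, where they summed to 10510, 12436 and 11875 CPM (counts scaled to the size of the library), against 63.7 to 244 CPM in tumor-like cells. The same markers named the class, so these sums describe it and give no independent support. The classes come from other genes of the same cells, so the p-values describe named classes and are not an independent test of cell identity. Tumor 1 stood apart, with 31.8% macrophage-like and 19.7% tumor-like cells, against 77.1% and 83.5% tumor-like cells in tumors 2 and 3, and calls that were lost without it are named.

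The activating receptors were carried by myeloid cells, and each had its own distribution among them. Levels below are CPM scaled by trimmed mean of M-values (TMM) from the summed raw counts of a class in a tumor. They compare classes for a gene, not genes with each other. Fcgr1, the high-affinity receptor, reached 81.6, 27.4 and 100.1 CPM in the macrophage-like cells of tumors 1, 2 and 3 (374, 11 and 65 UMIs). These values lay above those of every other class without overlap. The highest level elsewhere was 9.62 CPM, in endothelial-like cells of tumor 2, from 1 UMI, and neutrophil-like cells held 1, 0 and 0 UMIs.

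Fcgr4, the receptor for IgG2a and IgG2b, was at 849, 775 and 515 CPM in macrophage-like cells (3890, 311 and 334 UMIs), which also lay above all other classes without overlap. Neutrophil-like cells had 272, 55.7 and 15.9 CPM (92, 7 and 1 UMIs). Mesothelial-like cells, present with at least 10 cells in tumor 1 alone, had 160.04 CPM from 72 UMIs, beside macrophage markers summing to 1163 CPM, and the part of such markers in that level was not tested.

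Fcgr3, the low-affinity activating receptor, showed a different order. Neutrophil-like cells held 1252, 239 and 128 CPM (423, 30 and 8 UMIs) and macrophage-like cells 383, 202 and 282 CPM, so that the neutrophil-like level was higher in tumors 1 and 2 and lower in tumor 3, and the classes overlapped. The TMM factor of the neutrophil-like sum was lowest in tumor 1 (0.485, against 0.958 and 1.43), and without it the levels were 607, 229 and 182 CPM against 297, 207 and 276 CPM. NK cell-like cells, the class that relies on this receptor for antibody-dependent killing, gave 67.0 CPM (11 UMIs) in tumor 1, the only tumor with at least 10 such cells, with Fcgr1, Fcgr2b and Fcgr4 at 0 UMIs there.

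Fcgr2b, the inhibitory receptor, was at 183.9, 92.2 and 189.5 CPM in macrophage-like cells (843, 37 and 123 UMIs), with every tumor positive. Neutrophil-like cells had 94.7, 15.9 and 0 CPM (32, 2 and 0 UMIs). B cells use FcγRIIb as their sole Fcγ receptor, and B cell-like cells of tumor 1 held 94.1 CPM from 65 UMIs, but those of tumors 2 and 3, with 15 and 25 cells, held 0 UMIs. In plasmacytoid dendritic-like cells the level was 15.9 and 27.5 CPM in tumors 1 and 3.

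The signaling chains were spread more widely. Fcer1g was at 3907, 2707 and 3058 CPM in macrophage-like and 4706, 1242 and 1036 CPM in neutrophil-like cells, and the ranges overlapped. Tyrobp was at 3628, 1862 and 2065 CPM in macrophage-like and 8367, 2786 and 1977 CPM in neutrophil-like cells, which also overlapped. The overlap of Fcer1g rests on tumor 1, where the TMM factor of the neutrophil-like sum was lowest (0.485). Without the TMM factors Fcer1g was higher in macrophage-like cells in every tumor, and its ranges did not overlap. Plasmacytoid dendritic-like cells of tumors 1 and 3 had 5020 and 851 CPM of Tyrobp but 825 and 233 CPM of Fcer1g, and beside these their macrophage markers summed to 3031 and 1638 CPM. NK cell-like cells of tumor 1 had 1266 CPM of Tyrobp and 688 CPM of Fcer1g. In tumor 2 endothelial-like cells had 443 CPM of Fcer1g, where 14 of 15 macrophage markers had UMIs and summed to 3201 CPM, against 120.4 and 0 CPM in tumors 1 and 3, where the markers summed to 547 and 345 CPM; the part of these markers in the level was not tested.

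Syk, the kinase that binds the phosphorylated chains, was at 321, 217 and 203 CPM in macrophage-like and 915, 207 and 159 CPM in neutrophil-like cells. It also reached 492, 143 and 17.8 CPM in B cell-like cells (340, 6 and 1 UMIs), where it acts downstream of the antigen receptor. Fcgrt was the member with the least myeloid restriction. Macrophage-like cells had 202, 254 and 216 CPM, endothelial-like cells 94.1, 202 and 198 CPM and CAF-like cells, the fibroblast and perivascular class, 167 and 157 CPM in tumors 1 and 3, while neutrophil-like cells had 14.8, 0 and 0 CPM (5, 0 and 0 UMIs). The ranges of macrophage-like and endothelial-like cells overlapped.

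**Figure D1:**
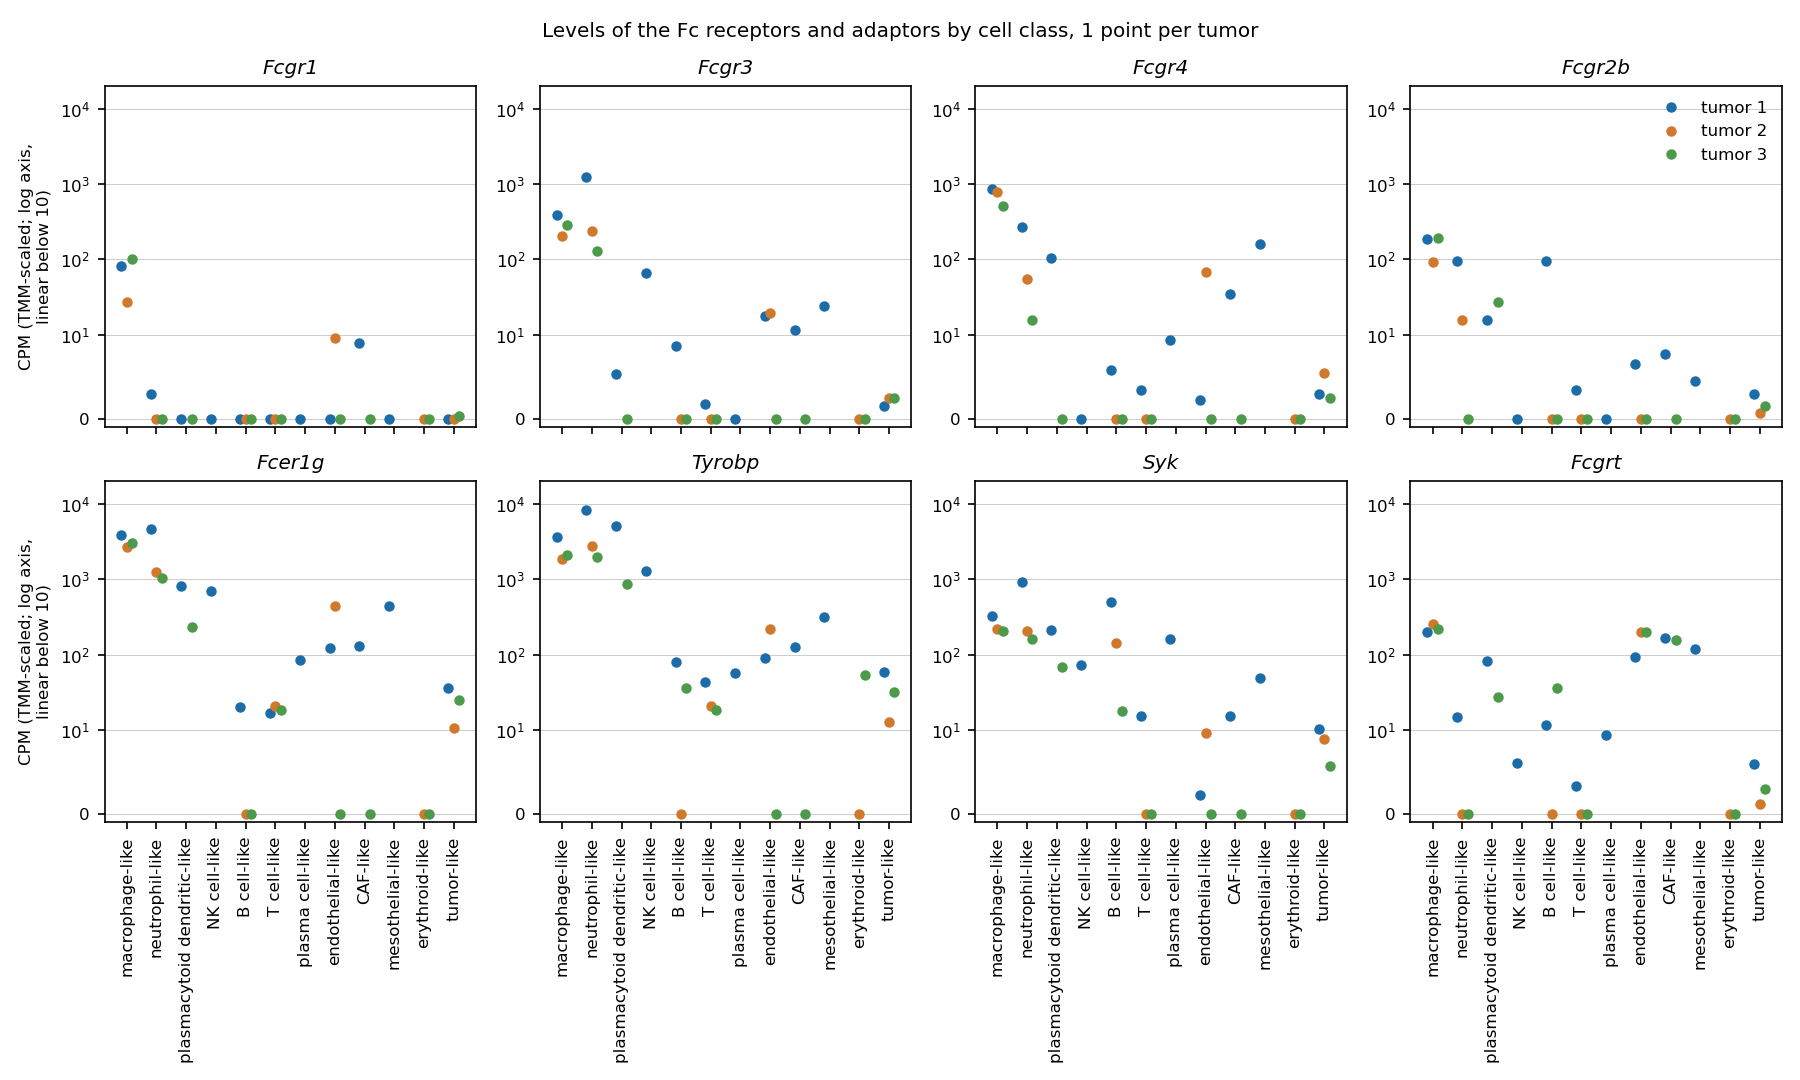
Level of each of the 8 genes (y axis, TMM-scaled CPM, logarithmic above 10 and linear below) in 12 named cell classes (x axis), with 1 point per tumor and class of at least 10 cells. Macrophage-like points lie above all other classes for Fcgr1 and Fcgr4, neutrophil-like points reach 1252 CPM for Fcgr3, and Fcgrt also stands between 94.1 and 202 CPM in endothelial-like cells.

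Each class was compared with the mean of the other classes by edgeR's quasi-likelihood test, with p-values adjusted over 9803 genes. In macrophage-like cells all 8 genes were higher, against 10.4% of all genes tested: Fcgr3 (adjusted p = 1.97e-07), Fcgr4 (5.53e-07), Fcgrt (7.42e-07), Fcgr1 (9.58e-07), Fcgr2b (1.56e-06), Fcer1g (3.34e-06), Tyrobp (4.77e-05) and Syk (6.58e-04). Only the Fcgr1 call was lost with DESeq2 (adjusted p = 0.793), and no alternative lost another of these 8, although Fcgr1 did not pass the filter on low counts without tumor 1. In neutrophil-like cells 6 of the 8 were higher, against 14.3%: Fcgr3 (5.76e-09), Tyrobp (2.03e-06), Fcer1g (7.22e-06), Syk (1.19e-05), Fcgr4 (0.00223) and Fcgr2b (0.00374). Without tumor 1 the edgeR calls of Fcgr2b (adjusted p = 0.444) and Fcgr4 (0.109) were lost there, and with the authors' corrected counts that of Fcgr2b (0.0623). Several classes held 0 UMIs of a gene, so fitted folds against this mean depend on the prior count and are given only where a sign turned and as medians of gene lists.

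In other classes 1 or 2 of the genes were called. In B cell-like cells Fcgr2b (edgeR adjusted p = 0.0108) and Syk (0.00474) were higher, against 2.22% of genes. Without tumor 1 the estimate for Fcgr2b turned (log2 difference -3.02), since its UMIs in this class came from that tumor, and the Syk call was lost without tumor 1 (0.235) or tumor 2 (0.0553). Endothelial-like cells were higher for Fcgrt (8.41e-06, against 11.8%) and CAF-like cells for Fcgrt (2.01e-05) and Fcgr1 (0.0362, from 7 and 0 UMIs, against 13.8%). The mesothelial-like class was 1 sum, with no spread of its own, and with the spread of the other sums edgeR put it higher for Fcgrt (0.00304) and Fcgr4 (0.0108, against 9.72%), which compares that sum and not a replicated class. DESeq2 did not call Fcgr1 in CAF-like (adjusted p = 0.979) or Fcgr4 in mesothelial-like cells (0.631), nor Fcgr2b (0.496) or Syk (0.0727) in B cell-like cells; the Fcgr1 call in CAF-like cells was also lost without tumor 3 (0.0619) and at a clustering resolution of 0.5 (0.111).

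Plasmacytoid dendritic-like cells were higher for Tyrobp (edgeR adjusted p = 1.31e-04, against 5.06%). With the tumor as a block, which the shared animal of each set of classes allows, this class was also higher for Syk (0.00241), Fcer1g (0.00724), Fcgrt (0.0171) and Fcgr4 (0.0251), against 7.82% of genes. The class held 80 UMIs of Fcgr4 in tumor 1 and 0 in tumor 3, so that this call rests on tumor 1, and without tumor 1 the class is a lone sum. In tumor-like cells edgeR called Tyrobp lower (adjusted p = 0.0218, against 1.46%), a call lost in 7 alternatives, among them each tumor left out (0.156 or more). DESeq2 called 6 of the 8 genes lower there, a count given without the share of all genes it called lower. The block also called Tyrobp lower in T cell-like cells (0.00738, against 0.184%), which had 43.6, 20.9 and 18.6 CPM. In NK cell-like, T cell-like, plasma cell-like and erythroid-like cells edgeR called none of the 8 genes (backgrounds of 1.83%, 1.95%, 2.88% and 0.153% higher and of 0%, 0%, 0.0408% and 0.153% lower), and DESeq2 called none of those to which it gave an adjusted p (it gave none to 6 of the 8 in erythroid-like and 1 in NK cell-like cells). With unadjusted p-values held to 0.05, edgeR put 3 of the 8 higher in NK cell-like and 1 in plasma cell-like cells, 1 lower in T cell-like and 2 lower in erythroid-like cells. No share of all genes at that unadjusted threshold is given beside these counts, so they are not read against a background. The NK cell-like, plasma cell-like and mesothelial-like classes were lone sums of tumor 1, assumed to vary like the other sums.

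Counted over whole tumors, most transcripts of the 8 genes lay in macrophage-like cells, although these were 31.8%, 8.35% and 7.44% of kept cells. They held 95.8 ± 3.66% of Fcgr1 UMIs, 93.0 ± 3.78% of Fcgr4, 91.2 ± 4.18% of Fcgr2b and 86.4 ± 5.44% of Fcer1g (mean ± SD of 3 tumors). Their share was smaller for Fcgr3 (79.5 ± 11.7%), Tyrobp (71.4 ± 9.26%), Fcgrt (70.4 ± 3.65%) and Syk (68.0 ± 9.61%). Neutrophil-like cells carried 18.8%, 25.4% and 4.02% of Fcgr3 UMIs in tumors 1, 2 and 3 and 11.7%, 29.8% and 7.55% of Tyrobp UMIs, so that the share of both was lowest in tumor 3, which had 22 such cells. Fcgrt was the gene with the largest stromal share, at 10.4 ± 6.05% in endothelial-like and 9.18 ± 1.49% in CAF-like cells, which numbered 8 in tumor 2. With the authors' corrected counts the neutrophil-like shares were 26.7 ± 17.4% for Fcgr3 and 25.1 ± 14.6% for Tyrobp, against means of 16.1% and 16.4% from raw counts, and the CAF-like share of Fcgrt was 5.82 ± 1.78%. Tumor-like cells, 77.1% and 83.5% of the cells of tumors 2 and 3, held 2.59% and 2.33% of Fcgr4 UMIs there. They held 1.79% and 6.58% of Tyrobp UMIs and, the largest share among the 8 genes, 10.9% and 11.4% of Syk UMIs. Raw counts include the free RNA of a suspension, and its part in these shares was not tested. With the authors' corrected counts tumor-like cells held 9.34 ± 7.17% of Syk, 3.35 ± 2.83% of Tyrobp and 2.36 ± 1.89% of Fcgr4 UMIs (mean ± SD of 3 tumors).

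**Figure D2:**
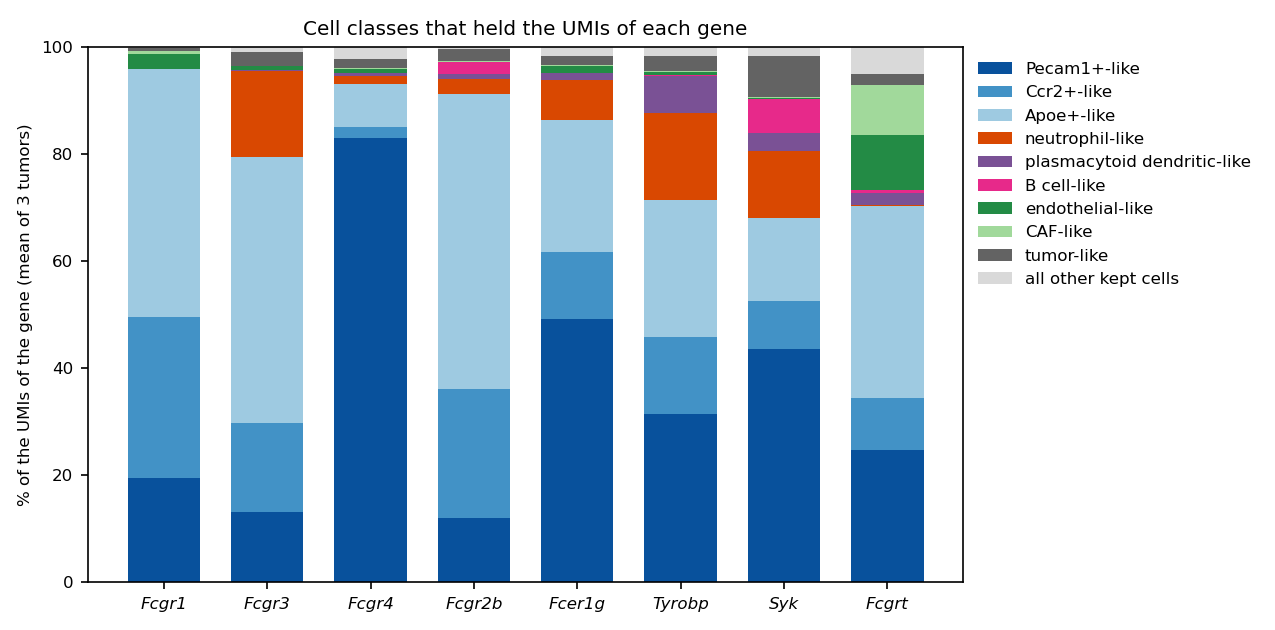
Share of each gene's UMIs in kept cells (y axis, percent, mean of 3 tumors, stacked to 100) by cell class, with the macrophage-like class split into its 3 subsets in shades of blue. Pecam1+-like cells held 82.9% of Fcgr4 UMIs, neutrophil-like cells 16.1% of Fcgr3, and endothelial-like and CAF-like cells 10.4% and 9.18% of Fcgrt.

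Detection per cell was compared after every cell had been thinned to 500 UMIs, with exact 95% binomial intervals that cover counting error only. Fcer1g was then found in 75.8% (72.2 to 79.2), 50% (39.9 to 60.1) and 51.9% (44.5 to 59.2) of macrophage-like cells in tumors 1, 2 and 3. It was found in 3.71%, 0.425% and 1.43% of tumor-like cells, which should lack the gene and give the background. Tyrobp was found in 89.4%, 63.0% and 72.7% of neutrophil-like cells, against 5.57%, 0.531% and 1.33% of tumor-like cells. Fcgr3 was found in 24.2% (18.8 to 30.1) and 11.1% (4.19 to 22.6) of neutrophil-like cells of tumors 1 and 2 and in 0 of 22 of tumor 3, which allows up to 13.6% of cells with a UMI at this thinned depth and sets no limit on expression. Before thinning the neutrophil-like shares were 70.3%, 38.9% and 27.3%, at median depths of 2608, 2232 and 2072 UMIs. The tumor-like background of Fcgr3 before thinning was 0.265%, 0.425% and 0.381%, at medians of 923, 1548 and 1812 UMIs. B cell-like cells of tumor 1 had Fcgr2b in 6.37% (3.44 to 10.7) and Syk in 16.7% (11.8 to 22.5), and in tumors 2 and 3 both were in 0 of 15 and 0 of 25 thinned cells, which allows up to 20% and 12% with a UMI at 500 UMIs. Before thinning Syk was found in 4 of those 15 and 1 of those 25 cells.

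Neutrophil-like and macrophage-like cells, the abundant phagocytes, were then compared directly, over 6296 genes. Both of the genes that differed were lower in neutrophil-like cells: Fcgr1 by a log2 fold change of -5.13 (SE 1.0, edgeR adjusted p = 0.0205) and Fcgrt by -4.74 (SE 0.80, adjusted p = 0.0120), against 2.94% of genes lower and 3.38% higher. Neutrophil-like counts of Fcgr1 were 1, 0 and 0 UMIs and of Fcgrt 5, 0 and 0, so these fitted folds rest on a few UMIs and depend on the prior count. Fcgr4 had -2.48 (SE 0.77, adjusted p = 0.0944) and Fcgr2b -1.71 (SE 0.77, adjusted p = 0.261). With the tumor as a block, Fcgr4 (-2.85, SE 0.57, adjusted p = 1.50e-05) and Fcgr2b (-1.84, SE 0.59, adjusted p = 0.0153) were lower too, when 7.67% of genes were lower and 9.29% higher. Fcgr3 (0.97, SE 0.73, adjusted p = 0.558), Tyrobp (0.89, SE 0.54, 0.433), Syk (0.87, SE 0.64, 0.541) and Fcer1g (-0.41, SE 0.56, 0.806) did not pass the test.

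These calls depended on single tumors. Without tumor 2 or tumor 3 edgeR called none of the 8 genes (Fcgr1 0.0980 and 0.124, Fcgrt 0.126 and 0.105), when it called no gene of the table lower, although at an unadjusted p under 0.05 it had 2 and 3 of the 8 and 519 and 458 genes lower. Without tumor 1, when Fcgr1 did not pass the filter on low counts, edgeR called 355 of 4200 genes lower. Among them were Fcgrt, Fcgr4 (-3.80, SE 0.48, adjusted p = 3.95e-04), Fcgr2b (-3.56, SE 0.82, adjusted p = 0.0136) and Fcer1g (-1.15, SE 0.27, adjusted p = 0.0155). The Fcgr3 estimate turned to -0.17.

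Macrophage-like cells were split into 3 subsets named after the marker genes of the study's own macrophage groups. Tumors 1, 2 and 3 held 294, 40 and 68 Pecam1+-like, 192, 10 and 16 Ccr2+-like and 122, 52 and 103 Apoe+-like cells. The paper calls all 3 groups macrophages. In its human tumors, however, the Pecam1+ signature lay mostly in non-classical monocytes and the Ccr2+ signature in monocytes. The name macrophage-like therefore does not set the Pecam1+-like and Ccr2+-like subsets apart from monocytes. The 3 subsets were compared over 4742 genes on their own TMM scale. Fcgr4 parted the subsets most plainly. It was at 1691, 1617 and 1049 CPM in Pecam1+-like cells (3528, 281 and 289 UMIs), at 49.4, 86.3 and 144.6 CPM in Ccr2+-like cells and at 209.9, 159 and 119.7 CPM in Apoe+-like cells. Pecam1+-like values lay above the other two without overlap, with a log2 difference of 3.63 from their mean (SE 0.34, edgeR adjusted p = 0.00200), higher in 3 of 3 tumors. It was the only member called higher in this subset, where 1.01% of genes were, and none was called lower, where 0.822% were (edgeR had 3 of the 8 lower at an unadjusted p under 0.05, and DESeq2 called 2 lower). Without tumor 2 the difference was 3.56 (adjusted p = 0.127), when no gene was called higher and by unadjusted p-values under 0.05 edgeR put 3 of the 8 and 359 genes higher. Pecam1+-like cells joined a subcluster that met 7 of 12 Pecam1+ markers and another that met 12 of 12. Without TMM factors Fcgr4 was at 803 CPM in the first and 2646 CPM in the second in tumor 1. It was at 1621 and 1961 CPM in tumor 2 and at 976 and 1168 CPM in tumor 3.

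The other activating receptor of broad myeloid use went the opposite way. Fcgr3 was at 199, 69.1 and 79.9 CPM in Pecam1+-like cells, 387, 237 and 237 CPM in Ccr2+-like cells and 491, 355 and 503.5 CPM in Apoe+-like cells. Each tumor thus had its lowest value in Pecam1+-like and its highest in Apoe+-like cells. The differences from the mean of the other subsets were -1.59 (SE 0.39, edgeR adjusted p = 0.0721) for Pecam1+-like and 1.25 (SE 0.35, 0.0861) for Apoe+-like cells, and both passed with the tumor as a block (-1.63, SE 0.26, adjusted p = 0.00111; 1.34, SE 0.23, adjusted p = 0.00153) and with DESeq2 (0.00878 and 0.0450).

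Fcgr2b and Fcgr1 were also lowest in Pecam1+-like cells. Fcgr2b was at 29.2, 17.3 and 105.3 CPM there (61, 3 and 29 UMIs), at 281, 64.7 and 210.3 CPM in Ccr2+-like and at 208, 189.6 and 275 CPM in Apoe+-like cells. Fcgr1 was at 7.19, 23.0 and 50.8 CPM in Pecam1+-like (15, 4 and 14 UMIs), 98.7, 64.7 and 158 CPM in Ccr2+-like and 138, 24.5 and 137 CPM in Apoe+-like cells. In tumor 2 these sums held 3 or 4 UMIs of Fcgr1 in each subset. Of the Fcgr1 UMIs of Pecam1+-like cells, 14, 4 and 12 lay in the subcluster that met 7 of 12 Pecam1+ markers. Neither gene passed in Pecam1+-like cells (Fcgr2b -2.09, SE 0.57, edgeR adjusted p = 0.102; Fcgr1 -2.20, SE 0.71, 0.178), while with the block both did (-2.39, SE 0.38, 0.00124; -2.70, SE 0.52, 0.00371). The block also called Apoe+-like cells higher for Fcgr2b (1.20, SE 0.32, 0.0207) and Fcgr1 (1.40, SE 0.41, 0.0295).

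Among the signaling genes, Fcer1g and Syk followed Fcgr4. Fcer1g was at 4433, 3677 and 4328 CPM in Pecam1+-like cells, above the 1957 to 3359 CPM of the other subsets in every tumor. Syk was at 409, 328 and 323 CPM there, against 118 to 205 CPM elsewhere, again with no overlap. Neither passed without the block (Syk 1.16, SE 0.26, edgeR adjusted p = 0.0547; Fcer1g 0.75, SE 0.21, 0.111) and both passed with it (1.19, SE 0.18, 0.00105; 0.76, SE 0.17, 0.00982), when 8.63% of genes were higher and 4.41% lower. Tyrobp differed least, at 1810 to 3429 CPM over the 9 sums, with differences of 0.03 (SE 0.26), 0.08 (SE 0.26) and -0.11 (SE 0.27) for Pecam1+-like, Ccr2+-like and Apoe+-like cells, whose signs turned under some settings. Fcgrt was highest in Apoe+-like cells, at 248.5, 355 and 310 CPM, against 191, 184 and 152 CPM in Pecam1+-like and 112, 259 and 131 CPM in Ccr2+-like cells (0.87, SE 0.29, edgeR adjusted p = 0.148; with the block 0.88, SE 0.22, 0.0124).

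In Ccr2+-like cells none of the 8 genes passed, when edgeR called 0.105% of genes higher and 0 genes lower. At an unadjusted p under 0.05 it had 1 of the 8 lower, and DESeq2 called 1 lower. Fcgr4 was the nearest there (-2.54, SE 0.43, edgeR adjusted p = 0.0501) and was lower with the block (-2.78, SE 0.40, 0.00118, when 2.17% of genes were lower and 2.55% higher). In Apoe+-like cells none passed either, when edgeR called 2.59% higher and 0.654% lower. With unadjusted p-values held to 0.05 it put 3 of the 8 higher and 2 of them lower, and DESeq2 called 1 higher. For all 3 subsets these unadjusted and DESeq2 counts are given without the share of all genes. With the block Apoe+-like cells were higher for 4 of the 8 (named above) and lower for Syk (-0.71, SE 0.20, 0.0258), when 7.87% and 10.1% of genes were. A subcluster of 42, 38 and 72 Apoe+-like cells had a median of 1352 UMIs, against 12399 in the other Apoe+-like subcluster, with plasma cell markers at 27047 CPM in tumor 1 and tumor markers at 2152 and 2807 CPM in tumors 2 and 3. Without it Fcgr4 was higher in Pecam1+-like cells by 3.66 (adjusted p = 0.0045), Syk was called higher (0.0439) and Fcgr3 (0.0302) and Fcgr2b (0.0449) lower there, and Apoe+-like cells were higher for Fcgr3 (0.0141) and Fcgrt (0.0308).

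**Figure D3:**
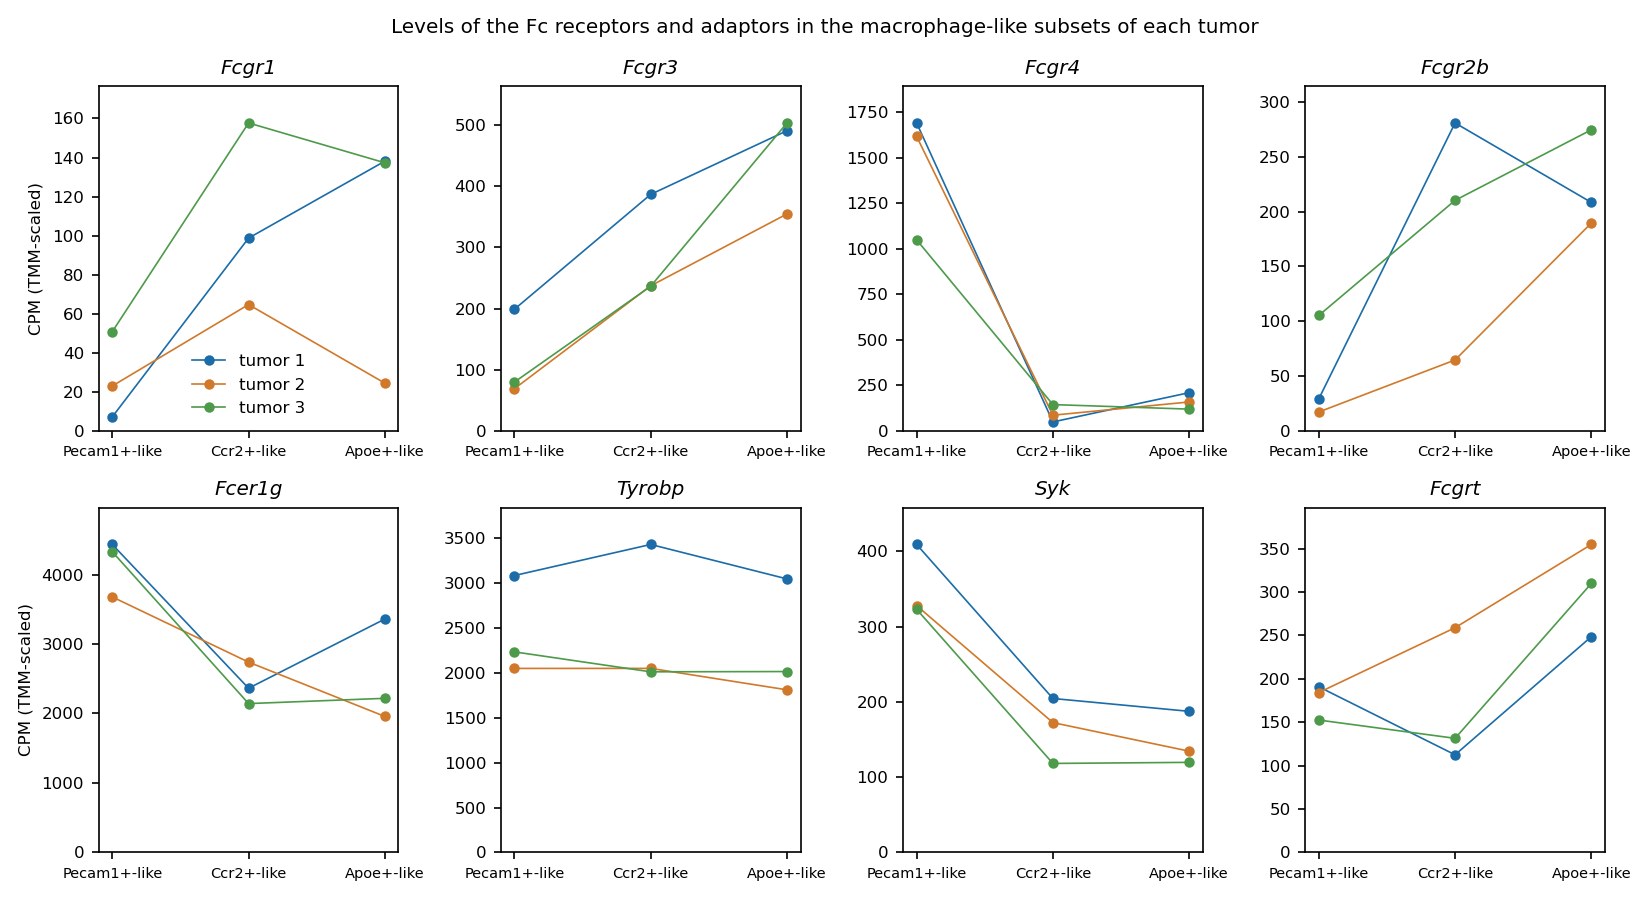
Level of each gene (y axis, TMM-scaled CPM, linear from 0) in the 3 macrophage-like subsets (x axis), with the 3 sums of a tumor joined by a line. Fcgr4 falls from 1049 to 1691 CPM in Pecam1+-like cells to between 49.4 and 209.9 CPM in the other two, Fcgr3 climbs from left to right in every tumor, and Tyrobp spans 1810 to 3429 CPM.

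Pecam1+-like cells were also the subset with the largest share of cells in which Fcgr4 was detected in every tumor, while the order of the other subsets changed between tumors. After thinning to 500 UMIs it was found in 46.9% (41.1 to 52.8), 45% (29.3 to 61.5) and 23.5% (14.1 to 35.4) of Pecam1+-like cells in tumors 1, 2 and 3, and in 6.56%, 3.85% and 5.83% of Apoe+-like cells. Ccr2+-like cells had it in 1.56% of 192, 2 of 10 and 0 of 16 cells, the last of which allows up to 18.75% with a UMI at this depth. Before thinning it was found in 50 of 192, 3 of 10 and 2 of 16 Ccr2+-like cells. Tumor-like cells had it in 0.265%, 0.318% and 0.190%. Without thinning the Pecam1+-like shares were 81.6%, 85.0% and 73.5%, and the tumor-like shares 0.531%, 0.743% and 0.381%. Over whole tumors the Pecam1+-like cells held 83.7%, 81.0% and 84.0% of all Fcgr4 UMIs.

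The balance of activating and inhibitory transcripts was measured as the log2 ratio of Fcgr1, Fcgr3 and Fcgr4 UMIs to Fcgr2b UMIs, each plus 0.5. Because this ratio sets UMIs of different genes against each other, it is read between groups and not as a balance of receptor protein. It was 6.01, 6.41 and 3.46 in Pecam1+-like cells, 0.93, 2.40 and 1.33 in Ccr2+-like cells and 2.01, 1.49 and 1.46 in Apoe+-like cells. Pecam1+-like cells thus had the highest ratio in each tumor, by 3.74 ± 1.49 (SD, n = 3) over Ccr2+-like and 3.64 ± 1.49 over Apoe+-like cells. In both cases 3 of 3 tumors went this way and the exact two-sided sign-flip p was 0.25, the smallest that 3 tumors allow. With Fcgr4 left out the differences were 0.54 ± 1.33 and 0.52 ± 1.24, with 2 of 3 tumors above 0 in each (lowest -0.58 and -0.91, exact p = 0.75 and 0.5). Ccr2+-like and Apoe+-like cells differed by -0.10 ± 1.0, less than the spread between tumors (exact p = 0.75).

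As a share of the 4 Fcγ receptors' UMIs, Fcgr2b made up 1.52% (exact 95% interval 1.16 to 1.95), 1.0% (0.207 to 2.89) and 8.19% (5.55 to 11.6) in Pecam1+-like cells. In Ccr2+-like cells it made up 34.4% (32.0 to 36.9), 14.3% (3.05 to 36.3) and 28.1% (17.0 to 41.5), and in Apoe+-like cells 19.9% (17.8 to 22.1), 26.1% (18.4 to 34.9) and 26.5% (21.6 to 32.0). The Pecam1+-like interval lay below those of both other subsets in each of the 3 tumors. Neutrophil-like cells had 5.84% (4.03 to 8.14) and 5.13% (0.627 to 17.3) in tumors 1 and 2 and 0 of 9 UMIs in tumor 3 (upper bound 33.6%). Their log2 ratio exceeded that of all macrophage-like cells by 1.21 ± 0.77, in 3 of 3 tumors (exact sign-flip p = 0.25). With the corrected counts the difference was 0.62 ± 1.32, with 2 of 3 tumors above 0 and the lowest at -0.88, and the ratio of tumor 3 rests on the pseudocount. B cell-like cells of tumor 1 stood at the other end, with 86.7% (76.8 to 93.4).

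Single cells were also scored for UMIs of both Fcgr2b and an activating receptor. Without thinning both were found in 59.4%, 30% and 37.5% of Ccr2+-like cells in tumors 1, 2 and 3, in 45.9%, 13.5% and 20.4% of Apoe+-like cells and in 11.6%, 5% and 20.6% of Pecam1+-like cells. Median depths differed between these subsets, at 11284, 4686 and 5631 UMIs in Ccr2+-like, 11785, 1446 and 1507 in Apoe+-like and 7037, 3772 and 3776 in Pecam1+-like cells. Thinned to 500 UMIs, at most 6 cells of a subset and tumor held both, too few to compare. An activating receptor was then found in 52.7%, 52.5% and 25% of Pecam1+-like cells, in 20.3%, 4 of 10 and 1 of 16 Ccr2+-like cells and in 21.3%, 9.62% and 16.5% of Apoe+-like cells, so that Pecam1+-like cells had the largest share in each tumor.

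**Figure D4:**
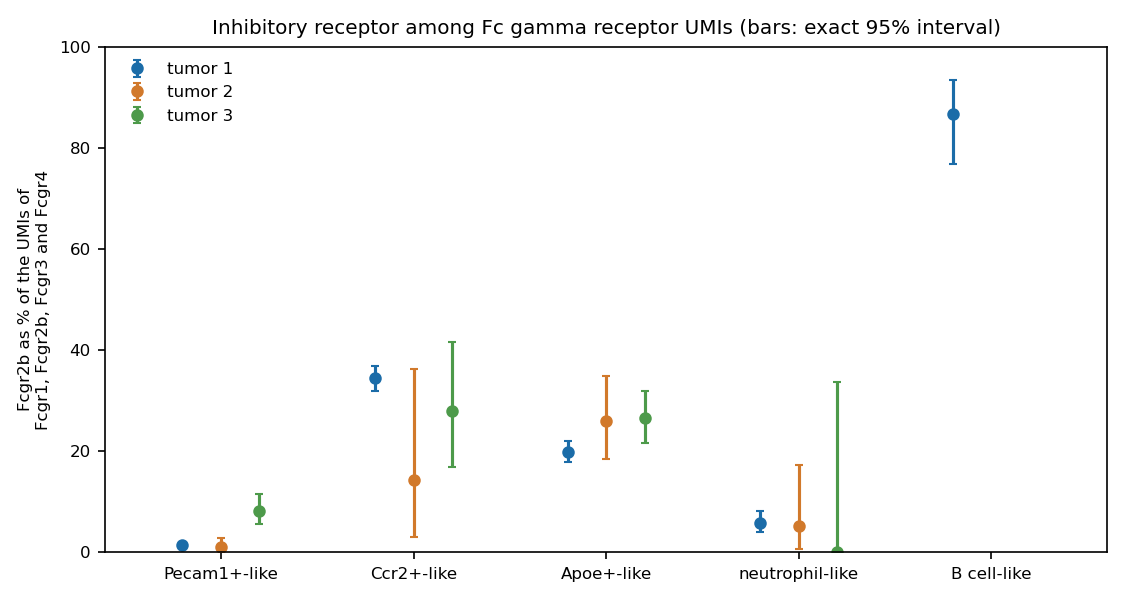
Fcgr2b as a percentage of the summed UMIs of Fcgr1, Fcgr2b, Fcgr3 and Fcgr4 (y axis) in the macrophage-like subsets, neutrophil-like and B cell-like cells (x axis), 1 point per tumor with its exact 95% binomial interval, which covers counting error only. Pecam1+-like cells stand at 1.0% to 8.19%, the other subsets at 14.3% to 34.4%, and the B cell-like cells of tumor 1 at 86.7%; B cell-like cells of tumors 2 and 3 held 0 UMIs of these genes and have no point.

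Genes of the wider pathway were also higher in macrophage-like and neutrophil-like cells and, for some lists, in B cell-like cells, and each list count is read against the share of all genes called. Of 24 tested Fc receptor signaling genes (28 listed), 11 were higher in macrophage-like cells, among them the Src family kinases Fgr and Lyn, which phosphorylate the activation motifs (267 and 537 CPM on average, edgeR adjusted p = 7.97e-06 and 0.00128). Among 16 tested genes listed as receptors that pair with Fcer1g or Tyrobp (22 listed, Clec2d among them), 12 were higher, among them Trem2 (124 CPM, edgeR adjusted p = 1.19e-08). Of the 14 inhibitory receptors 13 were higher, among them Clec4a2, Pirb and Sirpa, the receptor of the "don't eat me" signal Cd47 (456 CPM, 5.45e-08). Phagocytosis effectors counted 14 of 21 and inhibitory signaling genes 5 of 11 higher (Ptpn6, Dok1, Dok3, Pag1 and Cblb), and of 6 tested other Fc receptors (14 listed) 1 was, Fcrl5 (66.1 CPM, 4.20e-06). The effector list also holds Cd47 and the receptors for dying cells Mertk and Axl, so its counts are not of Fc receptor effectors alone. The background was 10.4%. Median fitted log2 differences were 1.99, 5.23, 4.95, 2.82, 1.95 and 1.02 in that order of lists, against 0.39 over all genes tested. With the block the last 3 counts were 21, 9 and 3 and that of the signaling genes was 16, when 17.4% of all genes were higher.

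In B cell-like cells 4 of the 6 tested other Fc receptors were higher, Fcmr (206 CPM, edgeR adjusted p = 3.17e-07), Fcrla (137 CPM, 1.05e-06), Fcrl1 and Fcer2a, the last 2 outside the naming rule. So were 5 of 24 signaling genes, among them Blnk (113 CPM, 2.21e-05), 2 of 14 inhibitory receptors (Siglecg and Cd72) and 3 of 11 inhibitory signaling genes, with 0 of 16 pairing receptors and 0 of 21 effectors, against 2.22% of all genes. In neutrophil-like cells the counts were 14 higher and 1 lower (Fyn) of the signaling genes, 11 of the pairing receptors, 11 of the inhibitory receptors, 13 of the effectors, 5 of the inhibitory signaling genes (Inpp5d, Ptpn6, Dok3, Pag1 and Cbl) and 1 of the other Fc receptors (Fcrl1), against 14.3% of all genes higher and 1.06% lower. Among the genes higher in neutrophil-like cells were Clec4e and Trem1, at 1561 and 1153 CPM on average. Compared directly with macrophage-like cells, 4 of 13 pairing receptors were higher and 1 lower in neutrophil-like cells, against 3.38% of all genes higher and 2.94% lower. Trem1, an amplifier of inflammation (5.86, SE 0.97, edgeR adjusted p = 0.0114), Clec4d (3.92, SE 0.79, 0.0231), Clec5a (3.60, SE 0.83, 0.0363) and Trem3, outside the naming rule (2.84, SE 0.70, 0.0429), were the higher ones, and Trem2 was lower (-5.08, SE 0.85, 0.0114). Of 21 effectors 4 were lower: Pld4 (-4.40, SE 0.74, 0.0114), Myo1g, outside the naming rule (-3.31, SE 0.73, 0.0305), and the receptors for dying cells Mertk (-4.05, SE 0.89, 0.0306) and Axl (-3.95, SE 0.80, 0.0233), and of 13 inhibitory receptors 1 was, Cd72 (-6.27, SE 0.95, 0.00898). Of 22 signaling genes 1 was lower, Vav2, also outside the rule (adjusted p = 0.0407). The neutrophil-like sums of Trem2, Mertk, Axl and Cd72 averaged 1.65 to 2.47 CPM, so these fitted differences rest on few UMIs. Medians were 0.48 for the signaling genes, 1.93 for the pairing receptors, 0.15 for the effectors, 0.18 for the inhibitory receptors and 0.37 for the inhibitory signaling genes, against -0.01 over all genes. With the block 7 pairing receptors, 2 effectors and 4 inhibitory receptors were higher and 1, 5 and 2 lower, against 9.29% and 7.67% of all genes.

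Between subsets the lists divided as well. Pecam1+-like cells were higher for Cd300ld (2.62, SE 0.55, edgeR adjusted p = 0.0430) and lower for Trem2 (-3.49, SE 0.59, 0.0236). They were also higher for Clec2d (1.31, SE 0.29, 0.0490), a gene of the pairing receptor list whose pairing is not established here. Of 10 inhibitory signaling genes 3 were higher: Pag1 (2.56, SE 0.50, 0.0363), Cblb (1.94, SE 0.38, 0.0363) and the phosphatase Ptpn6, encoding SHP-1 (1.27, SE 0.27, 0.0460). Pag1 is also in the study's own signature of these cells, so its rise gives no independent support. The background over all genes was 1.01% called higher and 0.822% called lower for Pecam1+-like cells, and 2.59% and 0.654% for Apoe+-like cells. Apoe+-like cells were higher for Trem2 (4.65, SE 0.47, 3.97e-04), Mertk (4.01, SE 0.42, 5.47e-04), Axl (3.04, SE 0.46, 0.00446) and the Syk substrate Blnk (4.0, SE 0.69, 0.0104). The effector Myo1g was higher in Pecam1+-like (2.19, SE 0.39, 0.0262) and lower in Apoe+-like cells (-2.35, SE 0.46, 0.0198). With the block Pecam1+-like cells were higher for 7 of 19 signaling genes, 10 of 21 effectors and 7 of 10 inhibitory signaling genes and lower for 2 effectors, against 8.63% of all genes higher and 4.41% lower. With the block Apoe+-like cells were lower for 8 of 19 signaling genes, 7 of 12 pairing receptors, 9 of 21 effectors and 6 of 10 inhibitory signaling genes and higher for 3, 2, 3 and 0, against 10.1% lower and 7.87% higher. List medians in Pecam1+-like cells ran from 0.62 (effectors) to 0.92 (pairing receptors), against 0.06 over all genes, and in Apoe+-like cells from -1.45 (pairing receptors) to -0.36 (inhibitory receptors), against -0.01. In Ccr2+-like cells edgeR called no gene of any list, and their medians lay between -0.29 and 0.75.

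The genes whose level was most like a member's were sought over 33 sums (tumors by class, macrophage-like cells as subsets). Over 8463 genes Fcgr4 was most like Clec4a3 (Pearson r = 0.911 of log2 CPM) and Lst1 (0.909) of the genes reported. Fcgr3 was most like Ccl6 (0.927), Tlr2 (0.925) and Rab20 (0.921), and Fcgr1 like Clec4b1 (0.905), Dnase1l3 (0.901) and Tmem106a (0.884). Fcgr2b had its closest genes in P2ry6 (0.874), Cd86 (0.851) and Tlr7 (0.845), Fcer1g in Cd300c2 (0.923), Slc15a3 (0.919) and Lst1 (0.912), and Tyrobp in Plek (0.909), Alox5ap (0.908) and Cd244 (0.903). Syk was most like Il10ra (0.906), Ptpn6 (0.890) and Napsa (0.876). Fcgrt was most like Lrp1 (0.891), Lamp1 (0.883) and Anxa4 (0.868). Between members the highest correlation was that of Fcer1g with Tyrobp (0.948) and the lowest that of Fcgrt with Syk (0.271). These sums share tumors and libraries, and the correlations are descriptions.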

How the data were processed

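Single-cell 3′ libraries (10x Genomics v3.1) were made from 3 tumors, 1 per mouse, and the labels name no further replicate. The authors deposited raw UMI counts per barcode, with Cell Ranger 3.1.0, Seurat 3.1.5 and mm10 in the processing notes, and a second table per tumor after removal of ambient RNA, doublets and poor barcodes, whose values were natural logs of corrected counts with 1 added. Barcodes of the second table defined the kept cells, and raw counts were analysed. The genes and lists were chosen with earlier results of these data known.

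Cells were integrated and clustered in Seurat 5.3.0 (2000 variable genes without the 8 genes and pathway lists, 30 dimensions, 20 neighbors, resolution 1, macrophage-like cells again at 0.5). A cluster was named where at least 3 fixed markers rose 2-fold and were detected in 10% of its cells. Doublets had been removed by the authors and no caller was run. Counts were summed per tumor and class (at least 10 cells) and tested in edgeR 4.0.16 (quasi-likelihood, filterByExpr, TMM, R 4.3.3), Benjamini-Hochberg adjusted over all genes tested, with a threshold of 0.05. A positive log2 value means higher in the class named first. Named pathway genes were the 3 of largest fold per list and direction that passed, moved the same way in every tumor and averaged at least 50 CPM in the higher group, and likeness was the Pearson correlation of log2 CPM with a prior count of 2. Some genes that these rules select are not reported here. On simulated counts the class comparison made more false calls than its threshold allows. Intervals are exact at 95%, and a count of 0 was taken to allow 3 counts.

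Classes of a tumor come from the same animal. Deviations from class means correlated between classes of the same tumor at 0.20 to 0.73 for the 9 subset pairs, 0.30 to 0.65 for the 3 neutrophil-like and macrophage-like pairs and -0.02 to 0.62 for the 85 class pairs, so the tumors pair the sums, and a fit with the tumor as a block is given beside a result where it changed a call. Other alternatives were DESeq2 1.42.0, other size factors, no filter, 5 cells per sum, each tumor left out, the corrected counts, other clusterings and leaving out the cells of most UMIs. The second tables gave no main result, because they hold no depth-scaled levels.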

Additional observations from a re-analysis of the deposited data

Results flagged for a closer look

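Transcripts of all 8 genes also lay in barcodes that the authors' filters removed, which no comparison above uses, and each count exceeded the limit of 3 UMIs. Over the 3 tumors the removed barcodes held 86 UMIs of Fcgr1 (15.7% of its UMIs), 181 of Fcgr2b (13.7%), 403 of Fcgr3 (13.6%) and 281 of Fcgr4 (5.42%). They held 2614 UMIs of Fcer1g (9.70%), 2697 of Tyrobp (9.10%), 433 of Fcgrt (21.3%) and 330 of Syk (10.9%). In every tumor the level of each gene was lower in removed than in kept barcodes. Of the removed barcodes 78.6%, 93.3% and 92.3% had over 20% mitochondrial counts in tumors 1, 2 and 3.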

How the results depend on the processing

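Each main result (counts of called genes, among the 8 and among all genes, ratio differences and shares) was set against each alternative. In 130 of these pairs the count stayed close to the main one or the mean stayed within the main SD. In 42 it did not (14 moved, 14 weaker, 14 stronger). Of the values for single genes under an alternative, 697 kept their direction and side of the threshold. Another 43 passed only under the alternative, 24 no longer passed and 13 changed sign. Where not said otherwise the cause was not tested. Genes called higher in macrophage-like cells (1023) numbered 394 with DESeq2, 1799 with no filter on low counts, 1701 with the tumor as a block and 669 with the corrected counts. In neutrophil-like cells (1397) they numbered 823 with the corrected counts and 542 to 1328 with a tumor left out, the lowest without tumor 1. In the direct comparison, the 2 of the 8 genes called lower became 4 with the block and 0 to 4 with a tumor left out, and the 185 genes called lower in all became 346 with no filter, 483 with the block and 0 to 355 with a tumor left out. In Pecam1+-like cells the 1 of the 8 called higher became 3 with the block, 2 with the corrected counts, 2 without the low-depth Apoe+-like subcluster and 0 to 3 with a tumor left out. The 48 genes called higher there became 82 with no filter, 409 with the block, 29 at a resolution of 0.5, 21 without integration, 5 at a second resolution of 0.8 and 0 to 85 with a tumor left out. Leaving out that subcluster, and Fcgr4 from the ratio, were chosen after seeing the data.

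Signs changed without tumor 1 for Fcgr2b in B cell-like cells (-3.02 to 4.25 with a tumor left out) and Fcgr3 in the direct comparison (-0.17 to 1.18), and at a second resolution of 0.8 for Fcgrt in Pecam1+-like cells (0.064). Tyrobp, whose subset differences lay near 0, turned in Apoe+-like (0.26), Ccr2+-like (-0.11) and Pecam1+-like cells (-0.15) without the low-depth subcluster, and in Ccr2+-like cells with no filter (-0.030). In Pecam1+-like cells it also turned with relative log expression factors (-0.0036), DESeq2 (-0.0052), a tumor left out (-0.0062 without tumor 3 to 0.098), corrected counts (-0.072), no integration (-0.28) and a second resolution of 0.8 (-0.29). The block changed no other call of the 8 genes than those given with their results.

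The ratio differences without Fcgr4 were 0.52 for Pecam1+-like over Apoe+-like cells, 0.54 over Ccr2+-like cells and 2.59 for neutrophil-like over macrophage-like cells, and the last was 2.05 with a pseudocount of 0.1, 0.83 with 1 and 0.62 with the corrected counts (2 of 3 tumors above 0). Mean shares of cells with a UMI went from 59.2% (Fcer1g, macrophage-like), 11.8% (Fcgr3, neutrophil-like) and 38.5% (Fcgr4, Pecam1+-like) at 500 UMIs to 75.1%, 28.4% and 51.9% at 1000 UMIs, and to 83.6%, 45.5% and 80.1% without thinning, since fewer UMIs were removed. Macrophage-like shares of UMIs were 79.7% for Fcer1g, 84.4% for Fcgr2b, 56.4% for Syk and 61.6% for Tyrobp with the corrected counts. Sums of 1 to 4 UMIs, as of Fcgr1 in tumor 2, limit what the subsets of that tumor can show.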
